A study of Mus musculus with 6 samples.

Results

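The genes described here encode the transcription factor NRF2 and its inhibitor KEAP1, the glutathione and thioredoxin systems, the enzymes that remove superoxide and peroxides, and the enzymes that supply NADPH. They were taken as a list of 40 symbols by their known roles, drawn up with earlier results of these data known, and all 40 were found among the 42256 genes of the deposited counts. All 40 also passed the filter on low counts, as did 12862 genes in all. Levels were compared between macrophages of CDH11-/- mice (knockout, KO; 3 libraries) and of CDH11+/+ mice (wild type, WT; 3 libraries). The gene that was lost, Cdh11, encodes the adhesion protein cadherin-11. Both genotypes had a mixed 129S1/Sv x C57BL/6 background and came from adult male mice. Bone marrow cells were grown for 7 days with 20% L929-conditioned medium, a source of the macrophage growth factor CSF1, and 10% FBS, with no further treatment. Total RNA was sequenced. The libraries held 27170943 to 37113689 counts. The series' design text speaks of separate animals, which the sample labels do not name. The p-values compare the difference between genotypes with the scatter among these 3 and 3 libraries. How far they hold for further animals was not tested.

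NRF2 is held in the cytoplasm and marked for degradation by KEAP1. Oxidants and electrophiles modify cysteines of KEAP1, after which NRF2 enters the nucleus and activates genes that carry antioxidant response elements. Glutathione and thioredoxin are the main thiol reductants of the cell: they pass electrons from NADPH to peroxidases and oxidised proteins, and the pentose phosphate pathway and malic enzyme replenish that NADPH. In macrophages these systems also limit the damage from the superoxide and hydrogen peroxide that the cells make themselves.

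In KO macrophages 4 of 6 genes of the thioredoxin system, 4 of 6 peroxiredoxins and Gpx1 were higher, and Nfe2l2, Txnip, Cat and Gstm1 were lower, while none of 4 genes of glutathione synthesis and recycling passed the test. The words rose and fell are kept for genes with an adjusted p under 0.05 in edgeR's quasi-likelihood test (Benjamini-Hochberg over all genes tested). A p that misses this threshold does not show that the genotypes were alike, so the 95% interval is given for such genes. Of the 40 members, 18 passed, 12 higher and 6 lower. Among all genes tested 35.2% passed, 18.5% being higher and 16.8% lower, against 45.0% of the members, 30.0% higher and 15.0% lower. The share of lower members is thus close to that of all genes, and the share of higher members is above it; whether these shares differ was not tested. The changes were small: none of the members differed by 2-fold or more, against 657 of all called genes (14.5%). The median absolute log2 fold change of the called members was 0.49, against 0.45 for all called genes. The median log2 fold change of the members was 0.06, against 0.00 for all genes tested. The values of the genotypes did not overlap for 24 members (60.0%), against 53.4% of all genes tested. Without WT 1, WT 2, KO 2 or KO 3, calls over all genes numbered 1037 to 1426 higher and 942 to 1293 lower, and calls among the members 9 to 11 higher and 4 to 6 lower.

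**Figure D1:**
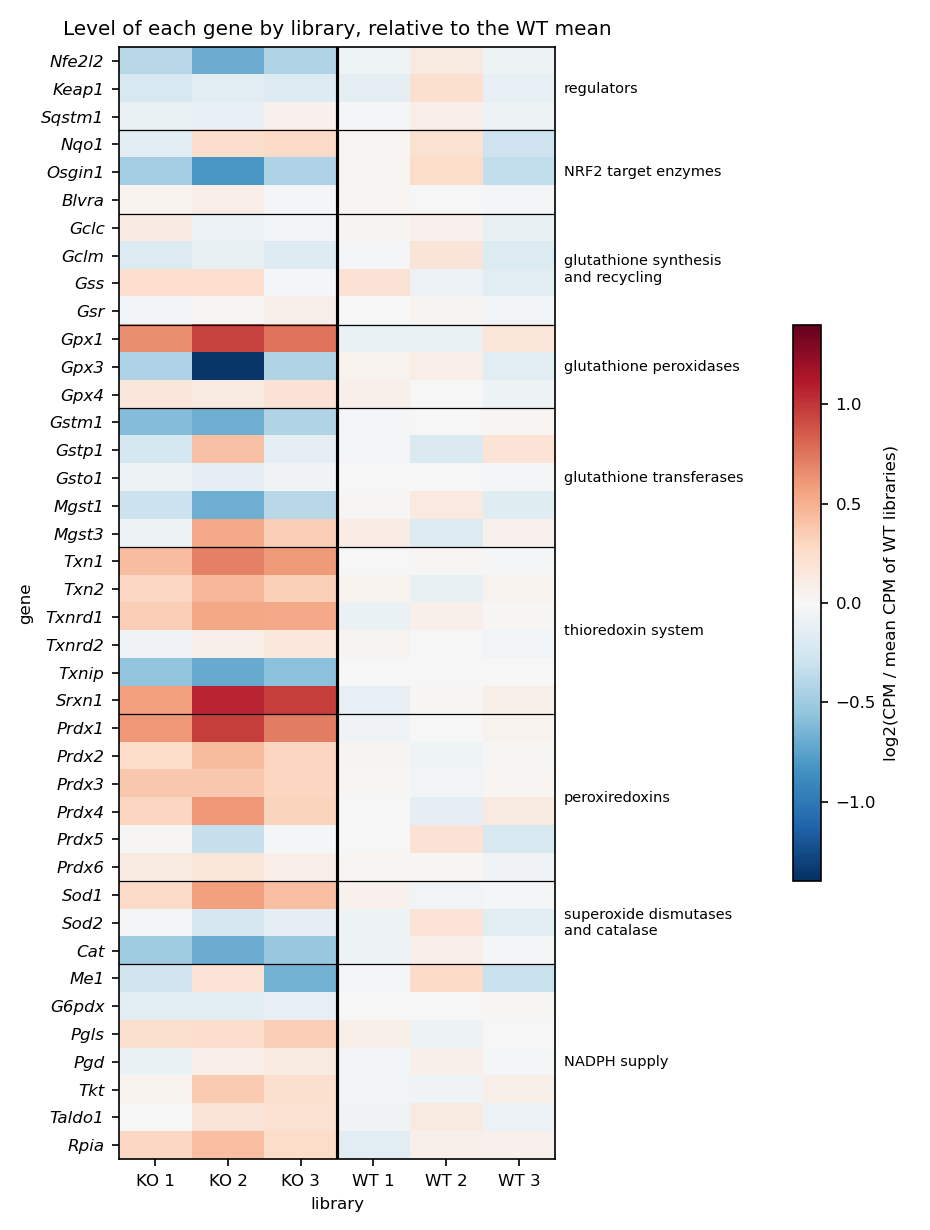
Each row is a gene and each column a library, KO 1 to KO 3 left of WT 1 to WT 3; colour gives log2 of CPM over the mean CPM of the WT libraries, and black lines part the roles. The peroxiredoxin and thioredoxin rows are mostly red in all 3 KO libraries, Txnip, Cat, Gstm1 and Nfe2l2 are blue, and the rows of glutathione synthesis are pale.

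Values below are CPM, that is, counts relative to the TMM-scaled library total, and means are given with the SD (n = 3 per genotype). For comparison between genes, CPM per kilobase of exon was used, with all annotated exons of a gene merged. Orders between genes therefore depend on the annotation. On that scale the members spanned from 1.82 for Nqo1 to 540.0 for Prdx1, as means of all 6 libraries, followed from the top by Gpx1 at 378, Txnip at 228 and Cat at 218. Prdx1 and Gpx1 also led within each genotype, but the next places differed. In KO they were held by Taldo1 at 191 and Txn1 at 191, ahead of Txnip at 180.2 and Cat at 175, and in WT by Txnip at 275 and Cat at 260.5. Nqo1, often used as a reporter of NRF2 activity, had the lowest level of the 40.

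**Figure D2:**
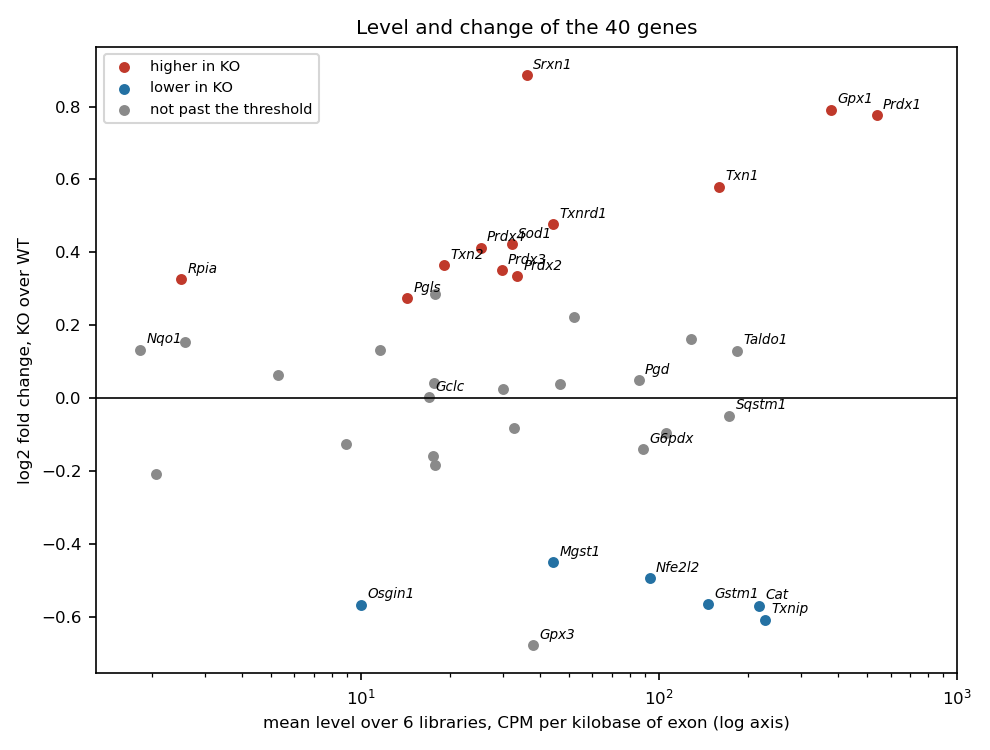
Each dot is a member, with its mean level over the 6 libraries in CPM per kilobase of exon on a log axis and its log2 fold change of KO over WT. The members that rose and those that fell both reach the upper end of the level axis, and Nqo1 lies at the lower end with no call.

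Library quality and identity were looked at before these results. Cdh11 itself had 6, 4 and 5 counts in KO 1 to KO 3 and 6, 11 and 6 counts in WT 1 to WT 3, too few to check the genotype labels. Macrophage markers were abundant, the summed level of 8 markers being 19539 to 25242 CPM in KO against 31026 to 33588 CPM in WT. Most of that sum was Lyz2, with a mean of 15915 CPM in KO and 23638 CPM in WT. Csf1r, Lyz2 and Cd14 fell, Cd68 rose, and Adgre1, Mertk, Fcgr1 and Itgam did not pass the test. Summed markers of neutrophils were 40.1 to 115 CPM in KO against 33.8 to 87.1 CPM in WT, with none of the 8 tested called (edgeR, unadjusted p under 0.05 for 1 of them). Erythroid markers, of interest because red cell precursors are rich in catalase and peroxiredoxins, summed to 1.82 to 3.79 CPM in KO against 2.93 to 4.15 CPM in WT, with Alas2 and Slc4a1 at 0 in every library and 1 of 9 genes abundant enough to test, which was not called. Markers of dendritic cells summed to 5.23 to 5.66 CPM in KO against 3.62 to 4.42 CPM in WT, and those of mast cells and basophils to 1.26 to 1.65 CPM in KO against 0.402 to 0.868 CPM in WT, with Tpsb2 and Cma1 at 0; of these lists 4 of 7 and 1 of 6 genes could be tested and none was called. Those of megakaryocytes summed to 178 to 282 CPM in KO against 167 to 243 CPM in WT, mostly Pf4, which was not called, while Ppbp and Itga2b rose. The lists of B cells, T and NK cells and stromal cells summed to at most 6.28 CPM in any library, with Dcn and Lum at 0. The part of these markers in the results was not tested, and in bulk RNA fewer cells of a type and less RNA per cell cannot be told apart. On the first principal component of the 500 most variable genes the KO libraries lay at 3.97, 22.5 and 13.3 and the WT libraries at -14.1, -19.2 and -6.47. KO 2 lay farthest from WT and KO 1 nearest.

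The order of the KO libraries on that component recurred in the members. KO 2 was the highest KO library for 10 of the 12 members that rose and the lowest for all 6 that fell. KO 1 was the lowest KO library for 10 of the 12 that rose. The same counts over all called genes were not made, so this order is not shown to be particular to the members. All 18 called members had genotypes that did not overlap, as did 53.4% of all genes tested. Non-overlap draws on the same values as the test, and its share among all called genes was not counted.

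Of the regulators, Nfe2l2 fell and Keap1 and Sqstm1 did not pass the test. Nfe2l2, which encodes NRF2 (ENSMUSG00000015839, chromosome 2, 75675513 to 75704641, minus strand; GRCm38, as for all coordinates), stood at 317, 257 and 309 CPM in KO 1 to KO 3, against 397, 454 and 395 CPM in WT 1 to WT 3. Every KO library lay below every WT library, KO 2 being the lowest and WT 2 the highest. The mean was 294 ± 33.1 CPM in KO against 415 ± 33.8 CPM in WT, a 1.41-fold lower level in KO (log2 fold change -0.50, SE 0.10, adjusted p = 0.0111 in edgeR). Keap1, the sensor that presents NRF2 for degradation (ENSMUSG00000003308, chromosome 9, 21229730 to 21239361, minus strand), stood at 76.4, 80.1 and 78.3 CPM in KO 1 to KO 3, against 81.0, 104 and 82.2 CPM in WT 1 to WT 3. WT 2 was high and the other 5 libraries were close together, the genotypes just failing to overlap, and the interval of the change included 0 (log2 fold change -0.18, 95% interval -0.41 to 0.05, adjusted p = 0.181 in edgeR). Sqstm1, the autophagy receptor p62, which binds KEAP1, was the most abundant of the 3 per kilobase. It stood at 552, 544 and 614 CPM in KO 1 to KO 3, against 578, 630.3 and 561 CPM in WT 1 to WT 3, with overlapping genotypes (log2 fold change -0.05, 95% interval -0.23 to 0.13, adjusted p = 0.643 in edgeR).

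Of 3 enzymes listed under the role of NRF2 targets, Osgin1 fell and Nqo1 and Blvra did not pass the test. Each member was given a single role, so these are not all the NRF2 targets among the members. Targets listed under other roles are described there. Nqo1, a quinone reductase (ENSMUSG00000003849, chromosome 8, 107388225 to 107403206, minus strand), stood at 2.42, 3.19 and 3.26 CPM in KO 1 to KO 3, against 2.76, 3.13 and 2.21 CPM in WT 1 to WT 3. The genotypes overlapped at this low level, and the interval of the change was wide (log2 fold change 0.13, 95% interval -0.34 to 0.61, adjusted p = 0.633 in edgeR). Nqo1 lies on the chromosome of Cdh11, 4.60 Mb from it. Osgin1, Gsr, Prdx2 and Pgls also lie on that chromosome. Osgin1, an oxidative stress-induced growth inhibitor (ENSMUSG00000074063, chromosome 8, 119434124 to 119446256, plus strand), stood at 22.9, 18.2 and 23.8 CPM in KO 1 to KO 3, against 32.6, 38.3 and 25.3 CPM in WT 1 to WT 3. The groups were apart, though KO 3 and WT 3 nearly met. Osgin1 fell 1.48-fold (log2 fold change -0.57, SE 0.17, adjusted p = 0.0402 in edgeR), a call lost on removal of any library but WT 3 (adjusted p 0.0731 to 0.115). Without both WT 2 and KO 2 its log2 fold change was -0.31. Blvra, a biliverdin reductase, stood at 116, 120.0 and 110.4 CPM in KO 1 to KO 3, against 114, 112 and 111 CPM in WT 1 to WT 3, with the groups overlapping (log2 fold change 0.04, 95% interval -0.09 to 0.17, adjusted p = 0.603 in edgeR).

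None of the 4 genes of glutathione synthesis and recycling was called (edgeR, unadjusted p under 0.05 for 0), and none passed in DESeq2 or limma-voom or in any other setting tried. Gclc and Gclm, the catalytic and modifier subunits of the enzyme that sets the rate of synthesis, did not pass. Gclc averaged 64.1 ± 4.69 CPM in KO against 64.0 ± 3.93 CPM in WT. Gclm averaged 104 ± 3.20 CPM in KO against 116 ± 15.1 CPM in WT. For Gclc the 95% interval of the log2 fold change ran from -0.17 to 0.17, and for Gclm from -0.38 to 0.06. Gss, glutathione synthetase, had a log2 fold change of 0.15 with an interval from -0.13 to 0.43. Gsr, which reduces oxidised glutathione with NADPH and was the most abundant of the 4 per kilobase (ENSMUSG00000031584, chromosome 8, 33652523 to 33698163, plus strand), stood at 80.3, 83.8 and 87.2 CPM in KO 1 to KO 3, against 82.5, 84.3 and 80.0 CPM in WT 1 to WT 3. Its libraries were interleaved (log2 fold change 0.03, 95% interval -0.10 to 0.16, adjusted p = 0.739 in edgeR).

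Of the 3 glutathione peroxidases, Gpx1 rose and the other two did not pass the test. Gpx1, the main cytosolic form (ENSMUSG00000063856, chromosome 9, 108338903 to 108340343, plus strand), stood at 626, 772 and 676 CPM in KO 1 to KO 3, against 375, 375 and 448 CPM in WT 1 to WT 3. Each KO library was well above the highest WT library, WT 3. Gpx1 rose 1.73-fold, to 691 ± 74.0 CPM in KO against 399 ± 42.3 CPM in WT (log2 fold change 0.79, SE 0.11, adjusted p = 0.00543 in edgeR). Gpx3, a secreted form, stood at 62.6, 32.8 and 63.1 CPM in KO 1 to KO 3, against 87.2, 90.3 and 76.1 CPM in WT 1 to WT 3. All KO libraries lay below the WT libraries, and KO 2 lay far below the other KO libraries. The difference did not pass the test (log2 fold change -0.68, 95% interval -1.28 to -0.08, adjusted p = 0.0756 in edgeR), but did so without KO 2 (log2 fold change -0.43, adjusted p = 0.0186), without both WT 2 and KO 2 (log2 fold change -0.38, adjusted p = 0.0472) and in DESeq2 (adjusted p = 0.00961). Gpx4, which reduces lipid peroxides in membranes, averaged 233 ± 6.18 CPM in KO against 208 ± 10.7 CPM in WT; its genotypes did not overlap, yet it missed the threshold (log2 fold change 0.16, 95% interval 0.02 to 0.30, adjusted p = 0.0704 in edgeR).

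Of the 5 glutathione transferases, which attach glutathione to electrophiles, 2 fell and none rose. Gstm1, of the mu class and the most abundant of them per kilobase (ENSMUSG00000058135, chromosome 3, 108012255 to 108017973, minus strand), stood at 169, 160.1 and 193 CPM in KO 1 to KO 3, against 254, 257 and 261 CPM in WT 1 to WT 3. WT libraries were tightly grouped and all KO libraries were below them. Gstm1 fell 1.48-fold (log2 fold change -0.57, SE 0.08, adjusted p = 0.00556 in edgeR). Mgst1, a microsomal form (ENSMUSG00000008540, chromosome 6, 138140316 to 138156755, plus strand), stood at 83.2, 63.8 and 78.8 CPM in KO 1 to KO 3, against 104, 113 and 91.4 CPM in WT 1 to WT 3. KO 1 and WT 3 came closest to each other. Its 1.37-fold fall (log2 fold change -0.45, SE 0.12, adjusted p = 0.0259 in edgeR) was lost on removal of WT 1, of WT 2 or of KO 3 (adjusted p 0.0634 to 0.0826), and without both WT 2 and KO 2 its log2 fold change was -0.27. Gstp1, Gsto1 and Mgst3 had log2 fold changes of 0.04, -0.08 and 0.29 and were not called, although Mgst3 was higher in KO without KO 1 (log2 fold change 0.44, adjusted p = 0.0153). The value of Gstp1 is uncertain, because its near copy Gstp2 may share its reads.

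In the thioredoxin system, 4 of 6 genes rose and the inhibitor Txnip fell. Txn1, the cytosolic thioredoxin (ENSMUSG00000028367, chromosome 4, 57943373 to 57956411, minus strand), stood at 181, 218 and 202 CPM in KO 1 to KO 3, against 135, 136 and 131 CPM in WT 1 to WT 3. The WT libraries lay close together and every KO library was above them. Txn1 rose 1.495-fold (log2 fold change 0.58, SE 0.08, adjusted p = 0.00516 in edgeR). Txnrd1, the cytosolic reductase that recharges thioredoxin with electrons from NADPH (ENSMUSG00000020250, chromosome 10, 82833951 to 82897712, plus strand), stood at 333, 381 and 378 CPM in KO 1 to KO 3, against 246, 274 and 264 CPM in WT 1 to WT 3. The groups were again separate, KO 1 being the lowest KO library. Txnrd1 rose 1.39-fold (log2 fold change 0.48, SE 0.08, adjusted p = 0.00665 in edgeR).

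Txn2, the mitochondrial thioredoxin (ENSMUSG00000005354, chromosome 15, 77915047 to 77929006, minus strand), stood at 85.8, 97.2 and 88.5 CPM in KO 1 to KO 3, against 72.8, 65.2 and 72.8 CPM in WT 1 to WT 3. All KO libraries were higher. It rose 1.29-fold (log2 fold change 0.37, SE 0.07, adjusted p = 0.0107 in edgeR), whereas its reductase Txnrd2 averaged 23.7 ± 1.58 CPM in KO against 22.7 ± 0.668 CPM in WT and was not called (log2 fold change 0.06, 95% interval -0.10 to 0.23, adjusted p = 0.514 in edgeR). Srxn1, sulfiredoxin, which repairs peroxiredoxins that have been oxidised too far (ENSMUSG00000032802, chromosome 2, 152105516 to 152111376, plus strand), stood at 107, 151 and 139.8 CPM in KO 1 to KO 3, against 66.5, 72.6 and 76.1 CPM in WT 1 to WT 3. KO 1 was lower than KO 2 and KO 3 but still above every WT library. At 1.85-fold, this was the largest change among the called members (log2 fold change 0.89, SE 0.13, adjusted p = 0.00629 in edgeR).

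Txnip, which binds thioredoxin and inhibits it and also restrains glucose uptake (ENSMUSG00000038393, chromosome 3, 96557957 to 96561883, plus strand), stood at 585, 528 and 575 CPM in KO 1 to KO 3, against 856, 855 and 863 CPM in WT 1 to WT 3. The WT libraries were almost equal, and every KO library was far below them. Txnip fell 1.52-fold, to 563 ± 30.6 CPM in KO against 858 ± 4.48 CPM in WT (log2 fold change -0.61, SE 0.06, adjusted p = 0.00417 in edgeR). An antisense gene, Gm15441, shares 606 exon bases with Txnip and averaged 0.343 CPM in KO and 0.424 CPM in WT. The ratio of Txnip to Txn1, both per kilobase and chosen after their values were seen, was 1.09, 0.815 and 0.957 in KO 1 to KO 3, against 2.13, 2.11 and 2.21 in WT 1 to WT 3. This measure is of transcripts, not protein, and rests on annotated exon lengths. On it Txnip exceeded Txn1 in every WT library, and the KO libraries lay near parity.

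**Figure D3:**
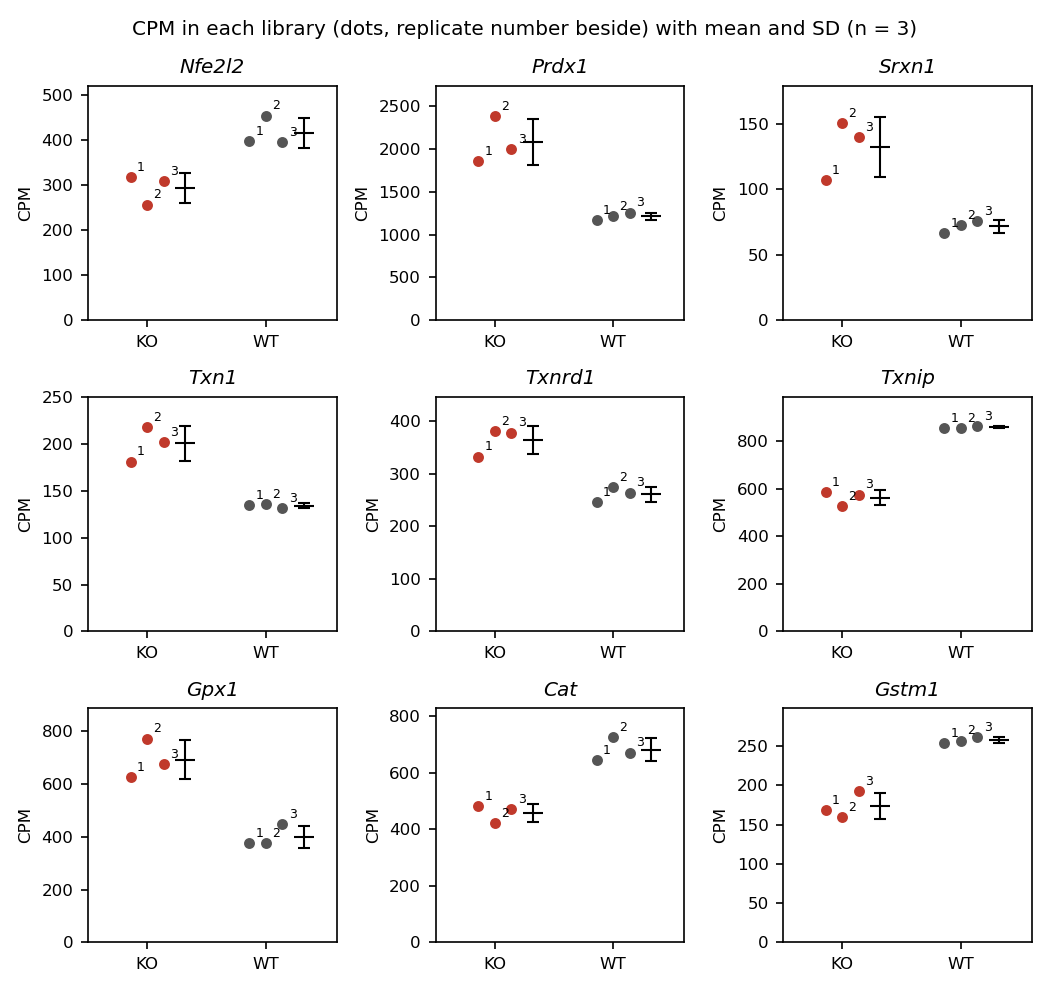
CPM of 9 members in each library, KO left of WT; dots are libraries with their replicate number, and the bar beside them is the mean with the SD (n = 3). KO and WT libraries do not overlap in any panel, with Prdx1, Srxn1, Txn1, Txnrd1 and Gpx1 higher and Nfe2l2, Txnip, Cat and Gstm1 lower in KO.

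Peroxiredoxins, which reduce hydrogen peroxide with electrons from thioredoxin, rose in 4 of 6 cases and none fell. Prdx1, cytosolic and the most abundant member per kilobase (ENSMUSG00000028691, chromosome 4, 116685544 to 116700822, plus strand), stood at 1852, 2376 and 1996 CPM in KO 1 to KO 3, against 1169, 1212 and 1254 CPM in WT 1 to WT 3. WT libraries were close together and KO 2 was the highest of all. Prdx1 rose 1.71-fold, to 2075 ± 271 CPM in KO against 1212 ± 42.2 CPM in WT (log2 fold change 0.78, SE 0.10, adjusted p = 0.00521 in edgeR). Prdx2, a second cytosolic form (ENSMUSG00000005161, chromosome 8, 84969587 to 84974834, plus strand), stood at 108, 123 and 111 CPM in KO 1 to KO 3, against 93.0, 86.6 and 91.5 CPM in WT 1 to WT 3, with no overlap. It rose 1.26-fold (log2 fold change 0.33, SE 0.07, adjusted p = 0.0105 in edgeR), a call not made on the authors' deposited signal (adjusted p = 0.0580 in limma). Prdx2 shares 177 exon bases with Rnaseh2a, which rose, and 173 with Junb, which was not called, both on the other strand.

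Prdx3, the mitochondrial form (ENSMUSG00000024997, chromosome 19, 60864051 to 60874556, minus strand), stood at 50.4, 50.1 and 47.5 CPM in KO 1 to KO 3, against 39.1, 37.7 and 39.3 CPM in WT 1 to WT 3. Both groups were narrow and well apart. Prdx3 rose 1.27-fold (log2 fold change 0.35, SE 0.05, adjusted p = 0.00622 in edgeR). Prdx4, found in the endoplasmic reticulum (ENSMUSG00000025289, chromosome X, 155323918 to 155340754, minus strand), stood at 56.4, 69.4 and 56.8 CPM in KO 1 to KO 3, against 45.6, 41.6 and 50.03 CPM in WT 1 to WT 3. KO 2 stood above the other KO libraries, and WT 3 came nearest to KO. Its 1.33-fold rise (log2 fold change 0.41, SE 0.10, adjusted p = 0.0215 in edgeR) was lost without WT 1 or WT 2 (adjusted p 0.0676 to 0.0763), and without both WT 2 and KO 2 its log2 fold change was 0.24. Prdx5 averaged 218 ± 27.3 CPM in KO against 233 ± 33.6 CPM in WT with overlapping genotypes (log2 fold change -0.10, 95% interval -0.40 to 0.21, adjusted p = 0.588 in edgeR). Prdx6, which uses glutathione instead of thioredoxin, averaged 58.6 ± 1.64 CPM in KO against 53.5 ± 1.68 CPM in WT; the genotypes did not overlap but the test was not passed (log2 fold change 0.13, 95% interval 0.01 to 0.26, adjusted p = 0.0888 in edgeR).

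Among the enzymes of superoxide and peroxide removal outside these families, Sod1 rose, Cat fell and Sod2 was not called. Sod1, the cytosolic copper and zinc enzyme (ENSMUSG00000022982, chromosome 16, 90220754 to 90226329, plus strand), stood at 131, 163 and 146 CPM in KO 1 to KO 3, against 114, 106 and 108 CPM in WT 1 to WT 3. All KO libraries were higher, KO 2 most. Sod1 rose 1.34-fold (log2 fold change 0.42, SE 0.08, adjusted p = 0.0107 in edgeR). Sod2, the mitochondrial manganese enzyme, averaged 85.4 ± 6.34 CPM in KO against 93.3 ± 11.7 CPM in WT, and the groups overlapped (log2 fold change -0.13, 95% interval -0.36 to 0.11, adjusted p = 0.345 in edgeR). Catalase, the peroxisomal enzyme that splits hydrogen peroxide without a reductant (Cat; ENSMUSG00000027187, chromosome 2, 103453849 to 103485160, minus strand), stood at 482, 421 and 473 CPM in KO 1 to KO 3, against 646, 725 and 671 CPM in WT 1 to WT 3. Every KO library was well below the lowest WT library. Cat fell 1.48-fold, to 458 ± 32.7 CPM in KO against 681 ± 40.5 CPM in WT (log2 fold change -0.57, SE 0.08, adjusted p = 0.00556 in edgeR). The transcript ratio of Prdx1 to Cat per kilobase, also chosen after its values were seen, was 3.30, 4.85 and 3.63 in KO 1 to KO 3 and 1.56, 1.44 and 1.604 in WT 1 to WT 3.

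Of 7 genes of the pentose phosphate pathway and malic enzyme, listed as NADPH supply, 2 rose, Pgls and Rpia, and none fell. Neither encodes an enzyme that itself makes NADPH, and G6pdx, Pgd and Me1, which do, were not called. G6pdx, which carries out the first and rate-limiting step of the pentose phosphate pathway (ENSMUSG00000031400, chromosome X, 74409483 to 74429194, minus strand), stood at 259, 258 and 264 CPM in KO 1 to KO 3, against 285, 286 and 289.9 CPM in WT 1 to WT 3. The KO libraries all lay slightly below the WT libraries, with no overlap. The difference missed the threshold in edgeR (log2 fold change -0.14, 95% interval -0.26 to -0.02, adjusted p = 0.0658) and passed in DESeq2 (adjusted p = 0.0223). G6pdx shares 418 exon bases with the opposite gene Ikbkg, which rose. Pgls, the lactonase of the next step (ENSMUSG00000031807, chromosome 8, 71592176 to 71601092, plus strand), stood at 57.3, 58.1 and 61.9 CPM in KO 1 to KO 3, against 51.6, 46.4 and 48.6 CPM in WT 1 to WT 3. All KO libraries were higher. It rose 1.21-fold (log2 fold change 0.27, SE 0.06, adjusted p = 0.0157 in edgeR), a call lost on removal of WT 2 or of KO 3 (adjusted p 0.0600 to 0.0642). Pgls shares 776 exon bases with Fam129c on the same strand, which averaged under 1 CPM in both genotypes.

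Pgd, which makes the second NADPH of the pathway, averaged 563 ± 45.4 CPM in KO against 544 ± 22.9 CPM in WT (log2 fold change 0.05, 95% interval -0.13 to 0.23, adjusted p = 0.651 in edgeR). In the non-oxidative branch, Rpia, ribose phosphate isomerase (ENSMUSG00000053604, chromosome 6, 70765720 to 70792232, minus strand), stood at 14.6, 15.96 and 14.3 CPM in KO 1 to KO 3, against 10.8, 12.5 and 12.5 CPM in WT 1 to WT 3. It rose 1.25-fold at a low level (log2 fold change 0.33, SE 0.09, adjusted p = 0.0321 in edgeR), a call lost on removal of any library but KO 1 (adjusted p 0.0524 to 0.106). Taldo1, transaldolase, the most abundant of these enzymes per kilobase (ENSMUSG00000025503, chromosome 7, 141392199 to 141402968, plus strand), stood at 379, 429 and 439 CPM in KO 1 to KO 3, against 366, 415 and 359 CPM in WT 1 to WT 3. WT 2 lay among the KO libraries (log2 fold change 0.13, 95% interval -0.07 to 0.33, adjusted p = 0.264 in edgeR). Tkt, transketolase, averaged 413 ± 45.1 CPM in KO against 354 ± 18.2 CPM in WT and was not called (log2 fold change 0.22, 95% interval 0.01 to 0.43, adjusted p = 0.0905 in edgeR), but was higher without KO 1 (adjusted p = 0.0190). Me1, the cytosolic malic enzyme, was low and spread, at 7.37 ± 2.19 CPM in KO against 8.53 ± 1.72 CPM in WT (log2 fold change -0.21, 95% interval -0.78 to 0.36, adjusted p = 0.524 in edgeR).

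**Figure D4:**
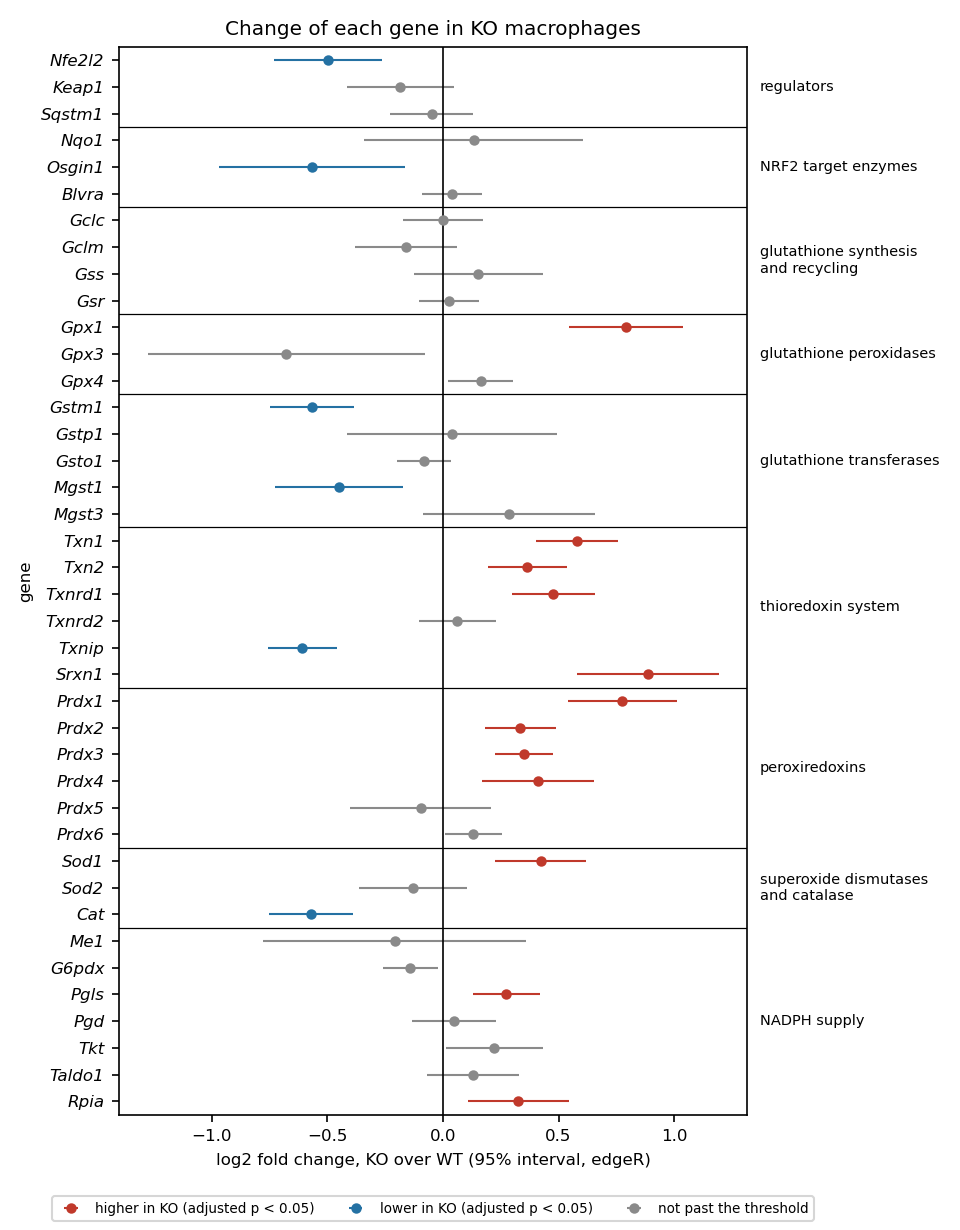
Log2 fold change of KO over WT for each of the 40 genes with its 95% interval from edgeR, grouped by role; red genes were higher and blue genes lower at an adjusted p under 0.05, and grey genes did not pass. Of the 22 grey genes 18 have an interval that lies wholly within 0.5 of zero on the log2 scale, and Gpx3, Nqo1, Me1 and Mgst3 have wider ones.

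Of the 22 members not called, 18 had a 95% interval within 0.5 of zero on the log2 scale, 5 had an unadjusted p under 0.05 in edgeR and 6 had genotypes that did not overlap. Of these members Keap1, Sqstm1, Gclm, Gss and Prdx5 also share exon bases with a neighbouring gene, so their values may hold reads of both. Of the 18 called members, 10 passed in the same direction in all 14 alternative settings tried: Nfe2l2, Gpx1, Gstm1, Txn1, Txnrd1, Txnip, Srxn1, Prdx1, Prdx3 and Cat. Leaving out any 1 library gave 9 to 14 members higher and 4 to 6 lower. On the authors' deposited signal, in limma, 10 members were higher and 6 lower, and 2 called members, Prdx2 among them, lost their call. Without both WT 2 and KO 2, 6 were higher and 5 lower, and Txn2, Prdx2 and Sod1 were among those that lost their call.

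NRF2 binds antioxidant response elements, whose core is often given as TGACNNNGC. Only this form was searched, so related forms were not counted. Promoter windows from 250 bases before to 50 bases after a RefSeq start (GRCm38.p6) matched 37 of the 40 members, all but Gclc, Gsr and Prdx6. A gene can have several starts, and these members had 46 windows; a gene was counted where any of its windows held the core. The core was searched on both strands and was found in 11 of these 37 (29.7%), against 3781 of 27025 genes in all (13.99%). Per window it was in 23.9% of the members' windows, against 12.4% of all windows. It was in 4 of 12 members that rose (Srxn1, Prdx1, Txnrd1 and Sod1), in 2 of 6 that fell (Nfe2l2 and Mgst1) and in 5 of 19 not called (Blvra, Gclm, Pgd, Me1 and G6pdx). The AP-1 motif TGANTCA was in 5 of 37 members (13.5%), against 8.97% of all genes. It overlapped the core in 2 members, Prdx1 and Me1 (5.41%), against 0.503% of all genes. A match is a description of letters and not of binding.

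The windows of 3 members that rose and of Nfe2l2, which fell, are shown because each holds the core; they read 5′ to 3′ on the strand of the gene, and capitals mark the core or, where it lies on the other strand, its reverse complement. The Txnrd1 window is that of a start 25255 bases inside the gene as given above. The others of its 3 windows do not hold the core. In the Srxn1 window the marked stretch begins 28 bases after the start. That window also holds tgagtcagc, left in lower case because it has G in place of the C of the searched core.
Prdx1, chr4:116685349-116685648, plus strand: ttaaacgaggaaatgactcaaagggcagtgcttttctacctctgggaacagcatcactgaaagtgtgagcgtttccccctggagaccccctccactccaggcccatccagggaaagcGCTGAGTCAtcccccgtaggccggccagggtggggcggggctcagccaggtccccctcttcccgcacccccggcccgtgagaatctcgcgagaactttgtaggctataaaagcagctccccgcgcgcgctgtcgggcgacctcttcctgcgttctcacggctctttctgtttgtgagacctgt
Srxn1, chr2:152105274-152105573, plus strand: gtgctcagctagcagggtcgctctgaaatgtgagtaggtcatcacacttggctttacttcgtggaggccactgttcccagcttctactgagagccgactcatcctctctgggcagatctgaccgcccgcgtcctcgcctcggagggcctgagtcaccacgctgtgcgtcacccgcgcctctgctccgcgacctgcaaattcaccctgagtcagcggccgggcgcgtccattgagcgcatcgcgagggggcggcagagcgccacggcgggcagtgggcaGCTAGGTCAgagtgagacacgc
Txnrd1, chr10:82858956-82859255, plus strand: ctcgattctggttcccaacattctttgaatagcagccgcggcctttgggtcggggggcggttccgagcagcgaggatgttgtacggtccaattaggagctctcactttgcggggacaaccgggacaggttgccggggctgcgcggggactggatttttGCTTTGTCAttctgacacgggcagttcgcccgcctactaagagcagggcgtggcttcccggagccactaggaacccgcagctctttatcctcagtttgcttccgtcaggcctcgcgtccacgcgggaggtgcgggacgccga
Nfe2l2, chr2:75704614-75704913, minus strand: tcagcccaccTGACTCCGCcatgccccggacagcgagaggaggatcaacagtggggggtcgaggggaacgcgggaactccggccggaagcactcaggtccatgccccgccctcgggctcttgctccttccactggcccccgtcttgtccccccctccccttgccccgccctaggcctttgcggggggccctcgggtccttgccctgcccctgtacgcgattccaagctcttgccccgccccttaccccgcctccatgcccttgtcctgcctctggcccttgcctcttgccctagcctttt

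The other genes of these pathways went both ways as well. Of 81 further genes listed, 73 passed the filter, and 17 of those rose and 13 fell (41.1% called, against 35.2% of all genes tested). The median log2 fold change was 0.08. The 8 genes that failed the filter were Gstp3, Ggt1, Gpx7, Gpx8, Msrb3, Sod3, Me3 and Tktl1. Leaving out 1 library gave 12 to 21 rises and 5 to 15 falls, with 5 falls on removal of WT 1, 6 on that of WT 2, 8 on that of KO 2 and 6 on that of KO 3. Without both WT 2 and KO 2 there were 9 rises and 4 falls.

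Of 17 genes outside the members that were listed as NRF2 targets, 5 rose and 3 fell. Hmox1, haem oxygenase, stood at 825, 1163 and 907 CPM in KO 1 to KO 3, against 537, 527 and 510.3 CPM in WT 1 to WT 3. All KO libraries were higher and KO 2 was the highest. Hmox1 also lies on chromosome 8, the chromosome of Cdh11. It rose 1.84-fold (log2 fold change 0.88, SE 0.12, adjusted p = 0.00572 in edgeR). Slc7a11, the cystine importer that feeds glutathione synthesis, rose 1.94-fold, to 12.8 ± 2.77 CPM in KO against 6.63 ± 1.86 CPM in WT (log2 fold change 0.95, SE 0.24, adjusted p = 0.0224 in edgeR), which did not pass on removal of WT 1, of WT 3, of KO 2 or of KO 3 (adjusted p 0.0620 to 0.0777). Ephx1, a microsomal epoxide hydrolase, fell 1.71-fold, to 27.7 ± 2.12 CPM in KO against 47.4 ± 5.18 CPM in WT (log2 fold change -0.77, SE 0.10, adjusted p = 0.00499 in edgeR). Ptgr1, Fth1 and Ugdh also rose, and Cbr3 and Blvrb also fell. Among 9 partners and brakes of NRF2, Bach1, a repressor that competes for the same elements, fell 1.37-fold, to 163 ± 11.4 CPM in KO against 222 ± 19.6 CPM in WT (log2 fold change -0.45, SE 0.08, adjusted p = 0.00905 in edgeR), and Park7 and Rbx1 rose. Cul3, Mafg and Mafk, with log2 fold changes of -0.05, -0.20 and -0.27, were not called.

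In glutathione turnover and glutaredoxins, 5 of 12 genes rose and 2 fell. Glrx, the glutaredoxin that uses glutathione to free protein thiols, rose 1.65-fold, to 112 ± 11.6 CPM in KO against 68.1 ± 8.995 CPM in WT (log2 fold change 0.72, SE 0.11, adjusted p = 0.00664 in edgeR). Esd, an esterase that releases glutathione from its formaldehyde adduct, rose 1.65-fold, to 377 ± 62.8 CPM in KO against 228 ± 4.82 CPM in WT (log2 fold change 0.73, SE 0.12, adjusted p = 0.00680 in edgeR). Ggt5, a gamma-glutamyl transferase that acts on glutathione conjugates such as leukotriene C4, fell 2.69-fold, to 7.46 ± 2.52 CPM in KO against 20.1 ± 5.13 CPM in WT (log2 fold change -1.43, SE 0.28, adjusted p = 0.0135 in edgeR), which did not pass on removal of KO 3 (adjusted p = 0.0522). Chac1, which degrades glutathione inside the cell and is named after its value was seen, rose 5.50-fold at a low level, to 2.97 ± 0.733 CPM in KO against 0.537 ± 0.139 CPM in WT (log2 fold change 2.46, SE 0.29, adjusted p = 0.00482 in edgeR). Among thioredoxin relatives and methionine repair, 4 of 13 rose and 5 fell. Nxn, nucleoredoxin, rose 2.18-fold, to 3.89 ± 0.883 CPM in KO against 1.77 ± 0.295 CPM in WT (log2 fold change 1.13, SE 0.22, adjusted p = 0.0107 in edgeR). Sesn1, a sestrin, fell 1.68-fold, to 228 ± 58.8 CPM in KO against 383 ± 34.2 CPM in WT (log2 fold change -0.75, SE 0.18, adjusted p = 0.0209 in edgeR), which did not pass on removal of WT 1, of WT 2, of KO 2 or of KO 3 (adjusted p 0.0512 to 0.0725). The related Sesn2 and Sesn3 also fell, with log2 fold changes of -0.20 and -0.53. Both passed only narrowly (adjusted p = 0.0445 and 0.0493 in edgeR), and their calls in other settings were not examined. Both are named after their values were seen.

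Only 1 of 11 further glutathione transferases was called in edgeR, the scarce Gsta4, named after its value was seen. Gsta4 fell to 0.231 CPM in KO, against 0.900 CPM in WT (adjusted p = 0.0386 in edgeR). Of 11 further enzymes of NADPH and pentose metabolism, 1 rose (Me2, a mitochondrial malic enzyme, log2 fold change 0.43) and 1 fell (Idh1, the cytosolic isocitrate dehydrogenase, log2 fold change -0.27). Both are named because they were the only calls in that list.

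**Figure D5:**
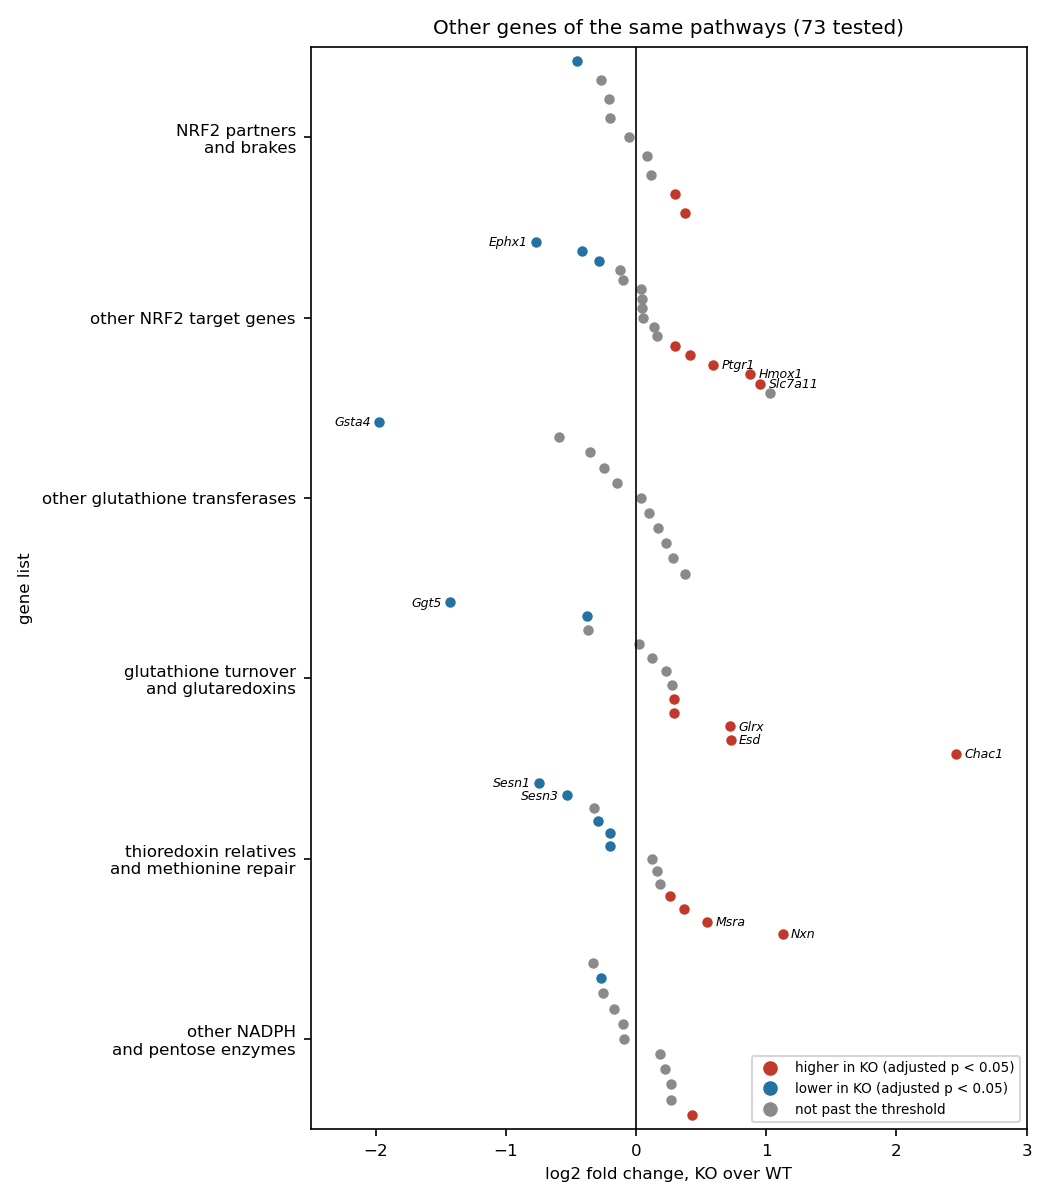
Log2 fold change of KO over WT for 73 other genes of the same pathways, 1 dot per gene in 6 lists; red dots were higher and blue dots lower at an adjusted p under 0.05 in edgeR. Called genes that changed by more than 0.5 on the log2 scale carry their names; each list but that of glutathione transferases holds both red and blue dots.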

How the data were processed

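RNA was extracted from cultured macrophages and sequenced from directional libraries, per the labels' protocols. The authors deposited whole-number counts per Ensembl gene and a normalized signal, which are counts divided by factors that differ between libraries and genes. The build is mm10 and the tools DRAGEN and DESeq2, per the submitters' processing notes; which annotation, strand setting and counter were used is not stated in the sources at hand. Reads shared with pseudogenes elsewhere in the genome were not examined. Symbols, coordinates and exon lengths come from GENCODE M21 (GRCm38, also called mm10), which named 42170 of 42256 genes. The members and gene lists were chosen with earlier results of these data known.

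Groups came from the genotype labels, and replicates were numbered in sample order. Counts were filtered with filterByExpr (minimum count 10), scaled by TMM and tested with edgeR 4.0.16 (robust quasi-likelihood F test, two-sided, no covariates) in R 4.3.3; p-values were adjusted over all 12862 genes. SEs and 95% intervals were derived from the F statistics. Between libraries of a genotype, chi-square over its degrees of freedom was 12.6 to 52.5, above sampling noise, so all 6 were kept as separate samples. Every called member is given with each library's value, as are Keap1, Nqo1, G6pdx and the most abundant member of each role; further pathway genes were up to 8 called ones with the largest change and a mean log2 CPM of at least 1. Alternatives used DESeq2 1.42.0, limma 3.58.1 (voom, or log2 of the deposited signal plus 1), other scalings and filters, and fewer libraries. The scripts were tested on simulated data. Some marker and neighbouring genes are not reported here.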

Additional observations from a re-analysis of the deposited data

How the results depend on the processing

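The counts of members called, higher and lower, stayed within 1.5 times of 12 and 6 under DESeq2, limma-voom, the other scalings and filters, the deposited signal and the removal of any 1 library. They did not stay so without both WT 2 and KO 2, where 6 were higher. That setting also gave 710 genes higher and 668 lower of all genes, and 9 higher and 4 lower of the other pathway genes; it has fewer samples. Leaving out 1 library gave 1037 to 2791 genes higher, 942 to 2665 genes lower, 9 to 14 members higher, 4 to 6 members lower, 12 to 21 other pathway genes higher, 5 to 15 lower, and a median log2 fold change of the members of 0.0364 to 0.112.

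Changes of sign occurred only among members that were not called in edgeR, and the cause was not tested. On the log2 scale Sqstm1 was -0.05 and became 0.0341 (without both WT 2 and KO 2). Gclc was 0.00 and became -0.00319 (DESeq2), -0.00313 (RLE scaling), -0.0022 (no filter), -1.02e-05 (mean CPM of at least 1), -0.0607 to 0.0426 (1 library left out). Gsr was 0.03 and became -0.016 (the deposited signal), -0.00875 to 0.054 (1 library left out). Gstp1 was 0.04 and became -0.00035 (the deposited signal), -0.277 (without both WT 2 and KO 2), -0.186 to 0.165 (1 library left out). Txnrd2 was 0.06 and became -0.0458 (the deposited signal). Prdx5 was -0.10 and became 0.112 (without both WT 2 and KO 2), -0.197 to 0.00823 (1 library left out). Sod2 was -0.13 and became 0.00478 (the deposited signal), 0.0301 (without both WT 2 and KO 2). Scaling moved the median of all genes little, from -0.00291 to 0.0171 on the log2 scale over 4 scalings. No paired analysis was possible because the labels give no replicate numbers shared between genotypes. The least abundant members per kilobase were Nqo1, Me1, Rpia and Gss.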
